A study of Mus musculus with 28 samples.

Results

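Cell division genes were followed in mouse skin through a list of 41 gene symbols whose products copy DNA or divide the chromosomes. The genes were taken by symbol, from a list drawn up with earlier results of these data known. Of the 41 symbols, 40 had at least 1 probe annotated to that gene alone, out of 19532 genes named in this way, and Ccnb1 had none. All 40 were measured in every one of the 24 mice.

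A cell that divides first licenses its replication origins and copies its DNA, and then condenses, aligns and separates the chromosomes on a spindle. Most of the genes in question are switched on in waves by E2F factors before DNA synthesis and by Foxm1 and related complexes before mitosis, and they are silent or low in resting cells. In skin, dividing cells are found mainly in the basal epidermis and in the matrix of growing hair follicles, and in inflamed skin also among infiltrating blood cells.

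The study transferred spleen cells into BALB/c-background mice as a model of chronic graft-versus-host disease, and took skin 2 weeks later. Every recipient lacked Rag2 and so formed no T or B cells of its own. Allogeneic cells from B10.D2 donors (allo) went into 5 Rag2-/- mice, against syngeneic cells from BALB/c donors (syn) into 4 Rag2-/- mice. In recipients that also lacked Il13, which encodes the cytokine IL-13, there were 4 allo and 4 syn mice. In recipients that also lacked Il4ra, a receptor chain used by both IL-4 and IL-13, there were 4 allo and 3 syn mice. These last 2 genotypes are called Il13-/- and Il4ra-/- recipients below. The mice measure skin after cell transfer, and they do not separate donor cells from recipient cells.

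Values are log2 of skin RNA over a reference RNA pooled from mouse cell lines, so a difference of 1 is a 2-fold change. Levels are compared between groups within a gene and never between genes. The labelled tissue was checked with 16 epidermal genes, all 16 of which had a median above 0. A second check used 10 genes of embryonic cells. Of these, 3 had a median above 0, and their middle value of -0.0585 was near 0, so this check did not settle the direction. All 40 cell division genes had a median below 0, the side of the cell line reference. Of the targeted genes, Il4ra lay between 0.39 and 0.85 in allo Il4ra-/- mice, against 1.69 to 3.27 in allo Rag2-/- mice, and between -0.32 and 0.070 in syn Il4ra-/- mice, against 0.33 to 1.42 in syn Rag2-/- mice. It did not set Il4ra-/- mice apart from Il13-/- mice, which lay between 0.53 and 2.88 with allo cells and between -0.69 and 0.50 with syn cells. Il13 and Rag2 ratios did not separate the genotypes. Whether these probes lie inside the deleted sequence was not analysed here.

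Promoters of the genes that lead the donor comparison are shown because cell cycle genes are known to share a few short elements. Genes whose window held no match were passed over, so each window shown holds an element by choice. Sequences cover 250 bases before and 50 bases after the gene start in RefSeq, build GRCm38.p6, and read 5′ to 3′ in the direction of the gene. Capitals mark every match, on either strand, to the CHR element TTTGAA, to CCAAT, or to the E2F forms TTTGGCGC, TTTCCCGC, TTTGCCGC and TTTCGCGC. Matches to E2F forms can overlap each other, as in Mcm6 and Mcm5.

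Mcm3 (chr1:20820263-20820562, minus strand): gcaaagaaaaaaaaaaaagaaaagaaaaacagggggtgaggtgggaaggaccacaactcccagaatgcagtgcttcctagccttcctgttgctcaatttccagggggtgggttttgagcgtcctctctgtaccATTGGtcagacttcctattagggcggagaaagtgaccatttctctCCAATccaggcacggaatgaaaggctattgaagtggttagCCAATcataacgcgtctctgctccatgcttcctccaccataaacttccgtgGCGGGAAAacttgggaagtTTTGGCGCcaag
Bub1 (chr2:127831810-127832109, minus strand): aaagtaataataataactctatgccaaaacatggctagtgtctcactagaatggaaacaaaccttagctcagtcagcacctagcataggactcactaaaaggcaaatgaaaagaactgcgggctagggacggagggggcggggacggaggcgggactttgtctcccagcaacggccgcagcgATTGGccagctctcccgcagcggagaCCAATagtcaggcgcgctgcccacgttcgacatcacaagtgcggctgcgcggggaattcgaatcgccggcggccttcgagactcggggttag
Mcm6 (chr1:128359656-128359955, minus strand): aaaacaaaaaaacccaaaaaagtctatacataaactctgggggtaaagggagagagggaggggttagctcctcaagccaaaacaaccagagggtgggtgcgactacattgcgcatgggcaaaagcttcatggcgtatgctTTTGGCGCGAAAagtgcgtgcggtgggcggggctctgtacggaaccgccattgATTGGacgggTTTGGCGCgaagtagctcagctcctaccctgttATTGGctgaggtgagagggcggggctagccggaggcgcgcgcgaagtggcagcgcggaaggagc
Mcm5 (chr8:75109259-75109558, plus strand): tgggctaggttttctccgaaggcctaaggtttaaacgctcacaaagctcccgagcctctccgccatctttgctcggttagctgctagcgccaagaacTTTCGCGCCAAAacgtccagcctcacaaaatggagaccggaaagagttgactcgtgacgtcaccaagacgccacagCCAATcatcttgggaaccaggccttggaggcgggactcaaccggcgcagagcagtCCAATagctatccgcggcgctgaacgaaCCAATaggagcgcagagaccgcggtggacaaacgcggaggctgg
Plk1 (chr7:122159185-122159484, plus strand): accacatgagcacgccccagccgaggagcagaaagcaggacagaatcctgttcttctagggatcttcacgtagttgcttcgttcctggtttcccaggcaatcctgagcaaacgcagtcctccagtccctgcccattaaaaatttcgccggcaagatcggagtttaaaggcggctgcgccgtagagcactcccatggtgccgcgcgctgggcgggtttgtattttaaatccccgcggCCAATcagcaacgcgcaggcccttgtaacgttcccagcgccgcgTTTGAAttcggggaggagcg
Rrm2 (chr12:24708004-24708303, plus strand): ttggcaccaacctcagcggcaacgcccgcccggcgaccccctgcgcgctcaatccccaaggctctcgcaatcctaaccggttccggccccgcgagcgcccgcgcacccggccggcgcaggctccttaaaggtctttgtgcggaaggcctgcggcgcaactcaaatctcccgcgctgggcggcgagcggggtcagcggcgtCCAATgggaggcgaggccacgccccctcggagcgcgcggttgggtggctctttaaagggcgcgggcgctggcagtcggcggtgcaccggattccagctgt

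Mcm3, Mcm6 and Mcm5, which encode helicase subunits, held E2F forms together with CCAAT. Bub1 and Rrm2 held CCAAT without a match to the other elements. Plk1, a mitotic kinase, held CCAAT and, after the start, a CHR element. Birc5 and Mad2l1 are also high on the list of differences, and their windows held none of these letters. Promoters were found for 34 of the 40 genes, 36 windows in all, with 2 each for Mcm7 and Prc1. Those of Prc1 overlap and hold the same elements. CCAAT occurred in 29 of the 36 (80.6%), against 37.4% of all 32851 mouse promoters of the same length. CHR occurred in 19 (52.8%), against 17.9% of all promoters, and an E2F form in 6 (16.7%), against 2.26%. A match describes the letters only and is no evidence of binding.

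In Rag2-/- recipients, a large share of the cell division genes was higher in allo than in syn skin. By limma with Benjamini-Hochberg adjustment over 14783 genes, 20 of the 40 were higher and 0 lower, while 12.6% of all genes tested were higher and 15.6% lower. Without adjustment, at p under 0.05, 28 were higher and 0 lower, and 16.9% of all genes were higher at that level. The median difference of the 40 was 0.833, against -0.0814 over all genes. In 23 of them all allo mice exceeded all syn mice, against 13.7% of genes measured in all of these mice. In bulk skin, more dividing cells and more of this RNA per cell cannot be told apart.

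**Figure D1:**
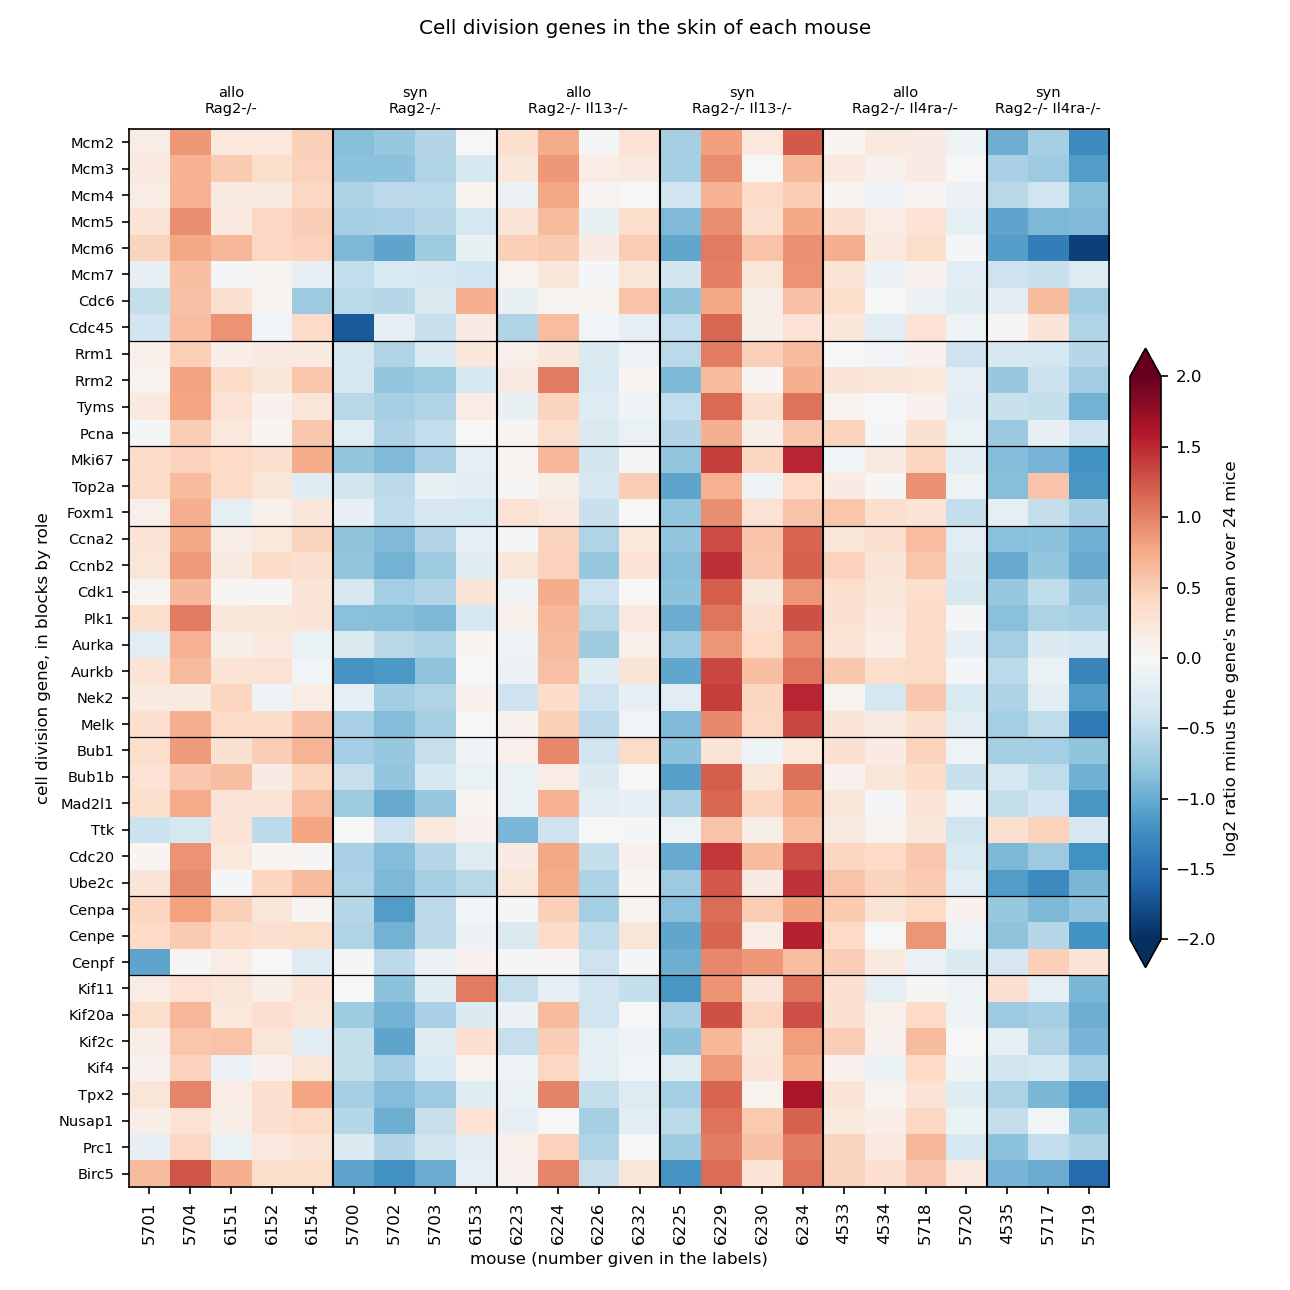
Each cell shows the log2 ratio of a cell division gene in one mouse minus the mean of that gene over 24 mice, with genes in blocks by role and mice in columns by group, allo left of syn. Allo Rag2-/- and allo Il4ra-/- columns are mostly red and their syn columns mostly blue, while the syn Il13-/- mice range from blue (6225) to the deepest red (6229 and 6234).

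The genes that license origins and unwind DNA had 5 of 8 members higher in allo Rag2-/- skin. Mcm3, a subunit of the replicative helicase, stood at -2.01, -1.50, -1.69, -1.86 and -1.75 in allo mice, against -3.03, -3.02, -2.80 and -2.53 in syn mice. No allo mouse reached down to the highest syn mouse. The difference was 1.08 (SE 0.23, adjusted p = 0.00178, limma), and it passed under all 37 alternative settings. Mcm6, another subunit, stood at -1.90, -1.57, -1.68, -1.94 and -1.89 in allo mice, against -3.25, -3.41, -3.05 and -2.50 in syn mice. The groups were again apart, with a difference of 1.26 (SE 0.30, adjusted p = 0.00402, limma). Of the remaining subunits, Mcm5 differed by 1.02, Mcm2 by 0.93 and Mcm4 by 0.73, all higher. Mcm7 differed by 0.44 (adjusted p = 0.124, limma) and did not pass. Neither did Cdc45, which activates the helicase (0.84, adjusted p = 0.0846), nor Cdc6, which loads it at origins (0.12, adjusted p = 0.832). The 2 Cdc6 probes pointed in opposite directions.

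Among genes of nucleotide supply and the replication fork, 2 of 4 were higher. Rrm2, a ribonucleotide reductase subunit, differed by 0.94 (SE 0.28, adjusted p = 0.0147, limma), and Tyms, thymidylate synthase, by 0.74 (adjusted p = 0.0411). Pcna, the sliding clamp of DNA polymerases, stood at -1.72, -1.20, -1.48, -1.65 and -1.15 in allo mice, against -1.90, -2.30, -2.19 and -1.69 in syn mice. Its groups overlapped slightly, and the difference of 0.58 did not pass (SE 0.23, adjusted p = 0.058, limma). Rrm1, the other reductase subunit, differed by 0.46 (adjusted p = 0.132).

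Mki67, which encodes the proliferation marker Ki-67, stood at -1.57, -1.48, -1.54, -1.62 and -1.20 in allo Rag2-/- mice, against -2.71, -2.82, -2.59 and -2.10 in syn Rag2-/- mice. The allo mice lay close together and all above the syn mice, by 1.07 on average (SE 0.33, adjusted p = 0.0182, limma). Without syn mouse 5700 the adjusted p of Mki67 was 0.0522. Top2a, the topoisomerase that untangles replicated DNA, stood at -1.63, -1.39, -1.63, -1.78 and -2.25 in allo mice, against -2.39, -2.54, -2.17 and -2.23 in syn mice. One allo mouse fell among the syn mice, and the difference of 0.59 did not pass (adjusted p = 0.197, limma). The Top2a value averages 2 probes that differed by 1.07 and 0.11. Foxm1, a transcription factor of mitotic genes, differed by 0.53 (adjusted p = 0.156).

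Of the cyclins and mitotic kinases, 5 of 8 were higher. Plk1, a kinase of mitotic entry and spindle assembly, differed by 1.16 (SE 0.33, adjusted p = 0.0115, limma). Ccna2 and Ccnb2, cyclins of S phase and mitosis, differed by 0.98 and 1.07, Aurkb, the kinase of the chromosomal passenger complex, by 1.06, and the kinase Melk by 1.01. Cdk1 (0.54), Aurka (0.49) and the centrosomal kinase Nek2 (0.52) did not pass, with adjusted p of 0.21, 0.226 and 0.209.

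Of the spindle checkpoint and anaphase genes, 3 of 6 were higher. Bub1, a checkpoint kinase, stood at -0.88, -0.38, -0.92, -0.72 and -0.54 in allo Rag2-/- mice, against -1.90, -1.98, -1.69 and -1.29 in syn Rag2-/- mice. All allo mice lay above all syn mice, by 1.03 (SE 0.24, adjusted p = 0.00289, limma). The 2 Bub1 probes gave medians of -3.14 and 0.761 but similar differences here, 1.07 and 0.99. With recurring values as missing, the adjusted p of Bub1 was 0.0562. Mad2l1, the checkpoint protein that holds back Cdc20, differed by 1.06, and Ube2c, the ubiquitin-conjugating enzyme of the anaphase-promoting complex, by 1.14. Bub1b (0.82), Cdc20 (0.83) and Ttk (-0.02) did not pass, with adjusted p of 0.0559, 0.0917 and 0.968.

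At the centromere, 1 of 3 genes was higher: Cenpa, the centromeric histone H3 variant, by 0.97 (SE 0.30, adjusted p = 0.0196, limma). The kinetochore motor Cenpe differed by 0.93 (adjusted p = 0.0556), and Cenpf by -0.08 (adjusted p = 0.878) with 2 probes of opposite sign. Among spindle motors and midzone genes, 3 of 8 were higher. Birc5, the survivin subunit of the passenger complex, stood at -1.57, -0.94, -1.49, -1.86 and -1.85 in allo mice, against -3.26, -3.42, -3.19 and -2.39 in syn mice. That gap of 1.52 was the largest of the 40 (SE 0.37, adjusted p = 0.00399, limma). The midzone motor Kif20a differed by 1.01 and the spindle assembly factor Tpx2 by 1.12. The motors Kif11 (0.23), Kif2c (0.61) and Kif4 (0.49), the microtubule-binding Nusap1 (0.68) and the midzone bundler Prc1 (0.47) did not pass, with adjusted p of 0.0763 to 0.685.

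Birc5, Mcm3, Mcm5, Mcm6, Mad2l1, Plk1, Rrm2 and Kif20a kept their calls under all 37 alternative settings. With the plain mean of all probes, Cenpa, Mcm4, Tyms and Ube2c did not pass. With number series as a block, Aurkb, Melk and Tyms did not pass. The count of 20 was 12 without syn mouse 5700, 13 without syn mouse 5702 and 13 without allo mouse 5704. For these fits the share of all genes called is not given. Rag2-/- mice carry numbers of 2 series, 57 and 61, which the labels do not explain. Within series 57, with 2 allo and 3 syn mice, the median difference was 1.07 and 38 of 40 genes were positive. Within series 61, with 3 allo mice and 1 syn mouse, it was 0.337 and 32 were positive.

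**Figure D2:**
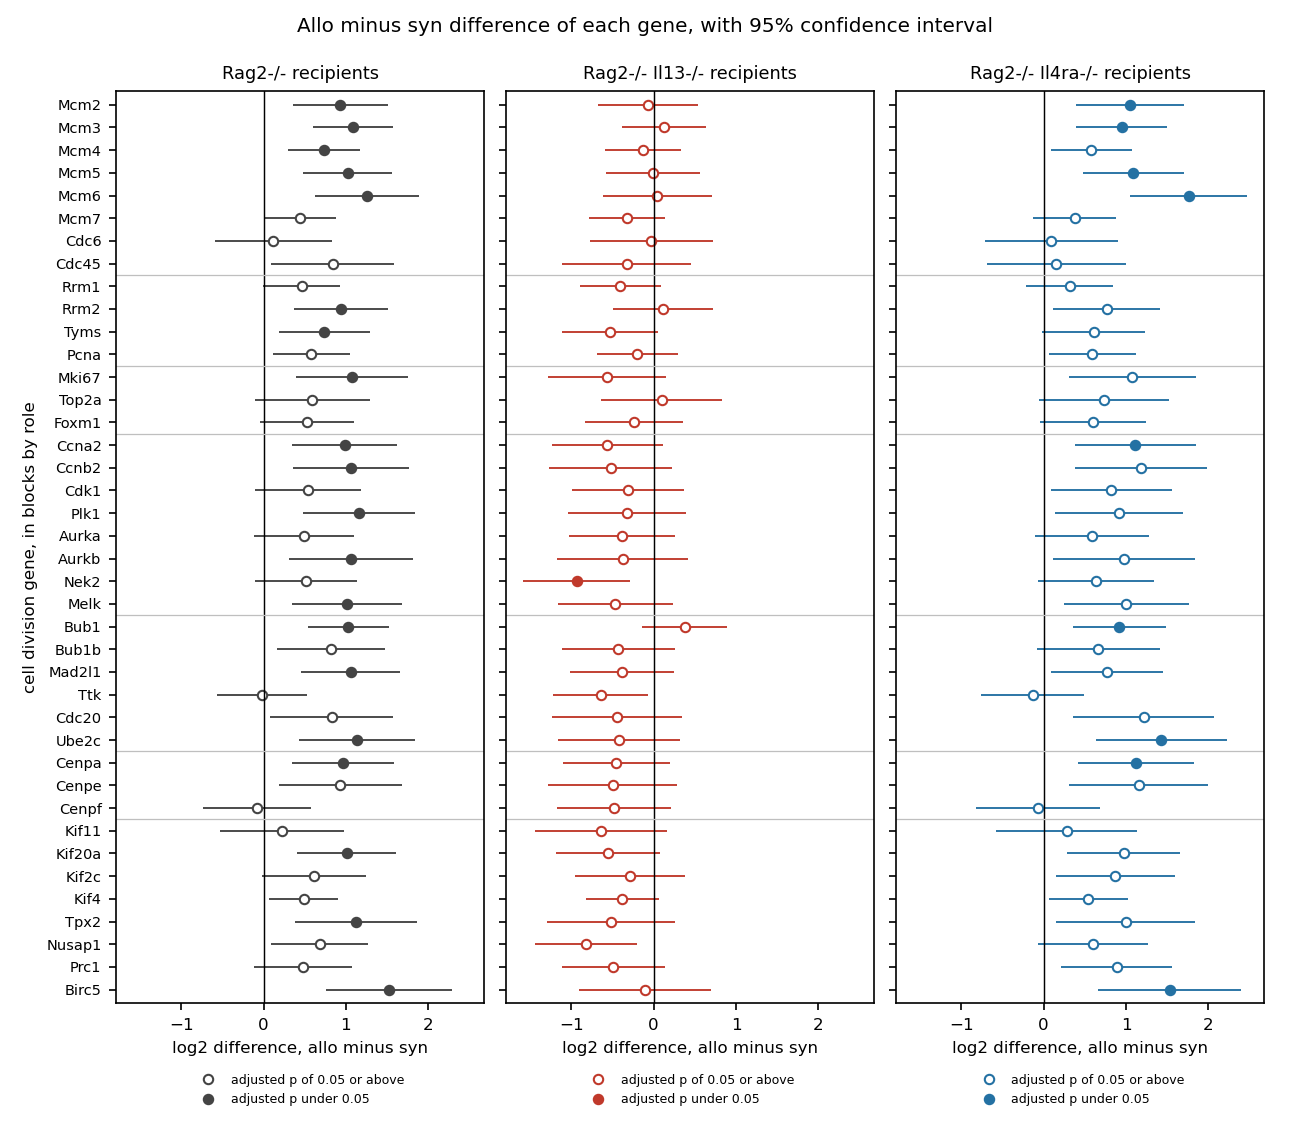
Points are the allo minus syn differences in log2 units of the 40 genes in 3 kinds of recipient, bars are 95% confidence intervals, and filled points passed an adjusted p of 0.05. In Rag2-/- and Il4ra-/- recipients 38 of 40 points lie right of 0, and in Il13-/- recipients 35 of 40 lie left of 0.

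In Il4ra-/- recipients most of the differences were again positive, and fewer passed the test. The median of the 40 was 0.845, against -0.0534 over all genes, and 38 were positive. Of the 40, 9 were higher by limma and 0 lower, while 5.91% of all genes tested were higher and 3.31% lower. At an unadjusted p under 0.05, 26 were higher and 0 lower, and 12.1% of all genes were higher. In 29 of the 40, all allo mice exceeded all syn mice, against 16.2% of genes measured in all of these mice. The 9 were Mcm2, Mcm3, Mcm5, Mcm6, Ube2c, Birc5, Bub1, Cenpa and Ccna2, and all were also among the 20 called in Rag2-/- recipients. Both comparisons come from the same fit. How many of all called genes they share was not counted, so this overlap has no share over all genes beside it.

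Mcm6 stood at -1.62, -2.15, -1.99 and -2.37 in allo Il4ra-/- mice, against -3.45, -3.72 and -4.22 in syn Il4ra-/- mice. The groups were separated by more than 1 log2 unit at their closest, and the mean difference was 1.76 (SE 0.34, adjusted p = 0.00216, limma). This was the only one of the 9 that kept its call under all 37 alternative settings. Ube2c stood at -2.02, -2.15, -2.06 and -2.82 in allo mice, against -3.71, -3.87 and -3.50 in syn mice. Allo mouse 5720 was the low one of its group but still above all syn mice, and the difference was 1.43 (SE 0.38, adjusted p = 0.0235, limma). Birc5 stood at -1.76, -1.87, -1.67 and -2.01 in allo mice, against -3.14, -3.19 and -3.75 in syn mice. The groups did not overlap, and the difference was 1.53 (SE 0.42, adjusted p = 0.0249, limma).

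Mki67 stood at -2.00, -1.76, -1.50 and -2.17 in allo Il4ra-/- mice, against -2.80, -2.87 and -3.14 in syn Il4ra-/- mice. These groups did not overlap, but the difference of 1.08 did not pass (SE 0.37, adjusted p = 0.0728, limma). Pcna stood at -1.24, -1.73, -1.39 and -1.82 in allo mice, against -2.44, -1.86 and -2.11 in syn mice. Its difference of 0.59 did not pass (adjusted p = 0.155). Top2a stood at -1.85, -2.00, -1.10 and -2.12 in allo mice, against -2.87, -1.44 and -3.18 in syn mice. Syn mouse 5717 lay among the allo mice for Top2a, and its difference of 0.73 did not pass (adjusted p = 0.243).

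The count of 9 in Il4ra-/- recipients was 1 without allo mouse 4533, allo mouse 5718 or syn mouse 5717, 2 without syn mouse 5719, and 3 without allo mouse 4534 or syn mouse 4535. The label of mouse 5718 reads IL14Ra, and it was counted as Il4ra-/-. With the 7 Il4ra-/- mice fitted alone, without the spread of the other groups, 22 were called, and without syn Il13-/- mouse 6225 in the joint fit 18 were. The share of all genes called in these alternative fits is not given here, so their counts have no share to be read against. With number series as a block 5 were called, and Bub1, Ccna2, Cenpa and Mcm2 were not among them. With the plain mean of all probes, the difference of Ube2c was 0.92 (adjusted p = 0.339). Within number series 45 (2 allo mice and 1 syn mouse) the median difference was 0.902, and within series 57 (2 allo and 2 syn mice) 0.796, with 37 of 40 positive in each.

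The difference between the donor effects of Il4ra-/- and Rag2-/- recipients was tested directly. By limma 0 of the 40 passed, and 0.00% of all genes were called. At an unadjusted p under 0.05, 0 were higher and 0 lower, against 2.39% and 2.54% of all genes. The median difference of effects was 0.00889, with single genes between -0.69 (Cdc45) and 0.50 (Mcm6). The 95% confidence intervals of the 40 together spanned -1.81 to 1.52, so differences of more than 1 log2 unit in single genes lie within the error.

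In Il13-/- recipients most of the differences were negative, and a single gene passed. By limma 0 of the 40 were higher and 1 lower, while 9.19% of all genes tested were higher and 7.11% lower. At an unadjusted p under 0.05, 0 were higher and 3 lower, against 13.7% and 15.2% of all genes. The median difference was -0.383, against -0.0524 over all genes, and 35 of the 40 were negative.

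Nek2, the kinase that splits the centrosomes, was the gene called lower. It stood at -2.61, -1.82, -2.60 and -2.35 in allo Il13-/- mice 6223, 6224, 6226 and 6232, against -2.40, -0.81, -1.76 and -0.67 in syn Il13-/- mice 6225, 6229, 6230 and 6234. The groups overlapped, with syn mouse 6225 among the allo mice, and the difference was -0.93 (SE 0.31, adjusted p = 0.0458, limma). The call held under 15 of the 37 alternative settings, with an adjusted p between 0.00317 and 0.619. Nusap1 stood at -2.15, -1.96, -2.63 and -2.20 in the allo mice, against -2.52, -0.90, -1.45 and -0.80 in the syn mice, in the same order. The same syn mouse was low, and the difference of -0.82 did not pass (SE 0.30, adjusted p = 0.065, limma). Ttk, a checkpoint kinase, stood at -1.78, -1.28, -0.85 and -0.90 in the allo mice, against -0.96, -0.29, -0.74 and -0.25 in the syn mice. The difference of -0.64 did not pass (SE 0.28, adjusted p = 0.127, limma).

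Mki67 stood at -1.91, -1.28, -2.30 and -1.98 in allo Il13-/- mice, against -2.73, -0.55, -1.50 and -0.41 in syn Il13-/- mice. Syn mice thus held both the lowest and the 2 highest Mki67 values of this genotype. Pcna stood at -1.64, -1.34, -1.98 and -1.82 in allo mice, against -2.28, -0.98, -1.57 and -1.15 in syn mice. Top2a stood at -1.99, -1.88, -2.35 and -1.50 in allo mice, against -3.08, -1.33, -2.09 and -1.62 in syn mice. For Mki67, Pcna and Top2a the lowest and the highest values were both from syn mice. The differences of Mki67 (-0.57, adjusted p = 0.293), Pcna (-0.20, adjusted p = 0.626) and Top2a (0.098, adjusted p = 0.894) did not pass by limma.

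**Figure D3:**
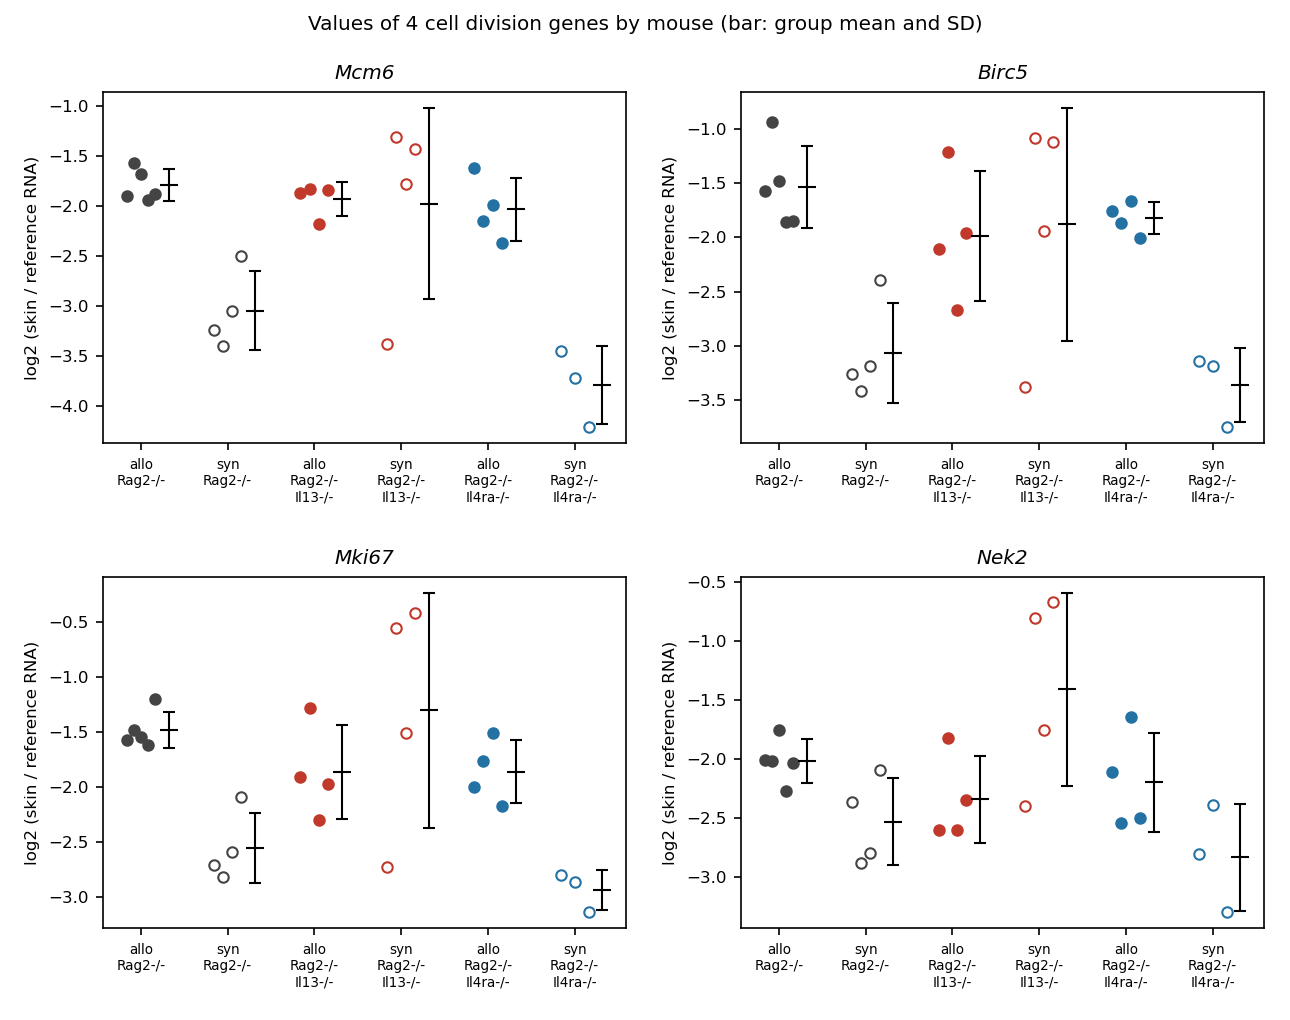
Points are log2 ratios of skin over reference RNA in single mice for Mcm6, Birc5, Mki67 and Nek2, with allo mice filled and syn mice open, and the bar beside each group is its mean and SD. Syn Rag2-/- and syn Il4ra-/- mice lie low for Mcm6, Birc5 and Mki67, while syn Il13-/- mice are spread widely, from -2.73 to -0.41 for Mki67.

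By role, the helicase genes lay nearest to 0 in Il13-/- recipients, with a median difference of -0.0497 over 8 genes. The cyclins and kinases had a median of -0.424 over 8 genes, and all 8 were negative. The spindle motors and midzone genes had -0.502 over 8 genes, again all negative. Bub1 was the most positive single gene at 0.38 (adjusted p = 0.341), but its 2 probes disagreed, at -0.51 and 1.26.

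The spread among syn Il13-/- mice was wide for nearly the whole list. The median SD of the 40 genes was 0.822 in syn Il13-/- mice, against 0.249 to 0.409 in the other 5 groups. The fit shares a spread per gene over all 6 groups. In comparisons with syn Il13-/- mice, that of Nek2 included, the SE and p therefore do not measure this wider spread. It also enters the SE and p of the comparisons without these mice, which are not those of the compared groups alone. The mean level over the 40 genes lay between -2.38 and -1.56 in allo Il13-/- mice. Among syn Il13-/- mice it was -1.03 in mouse 6229 and -1.10 in mouse 6234, the highest of all 24 mice. It was -1.73 in mouse 6230 and -2.80 in mouse 6225, which ranked 22 of 24. Mouse 6229 lay above all 7 syn mice of the other genotypes in 39 genes and above all 13 allo mice in 32. For mouse 6234 these counts were 38 and 27, and for mouse 6230 they were 32 and 2. Mouse 6225 lay below all 13 allo mice in 35 genes.

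Hair follicle genes had their highest means in mice 6229 and 6234, but did not follow the cell division genes in every mouse. The mean of Msx2, Lef1 and S100a3, the 3 listed genes of hair matrix and shaft that were measured in every mouse, lay between -0.94 and -0.76 in allo Il13-/- mice. Among syn Il13-/- mice it was 3.59 in mouse 6229, 4.35 in mouse 6234, 1.67 in mouse 6230 and 0.58 in mouse 6225. It lay between -1.06 and 1.71 in allo Rag2-/- mice, against -0.57 to -0.26 in syn Rag2-/- mice, and between -0.93 and -0.42 in allo Il4ra-/- mice, against -1.15 to -0.12 in syn Il4ra-/- mice. Of 10 hair genes tested out of 15 listed, 8 were lower in allo than in syn Il13-/- skin by limma, while 7.11% of all genes were lower. Their median difference was -3.68. The hair genes were not counted without mice 6229 and 6234. In Rag2-/- recipients the same 10 genes had 1 called higher, Krt35, and 0 lower, while 12.6% of all genes were higher. In Il4ra-/- recipients 0 hair genes were called in either direction. Of the allo Rag2-/- mice, 5701 and 6152 had the highest hair means, 1.71 and 0.73. Their means over the 40 cell division genes, -1.92 and -1.85, were the lowest of that group. Allo Rag2-/- mouse 5704 had the highest mean of cell division genes there (-1.41), with a hair mean of -0.097. Without mice 5701 and 6152, 20 cell division genes were again higher, though Aurkb and Tyms were no longer among them. The share of all genes in that fit is not given. The part of hair follicle cells in the values of cell division genes was not tested.

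**Figure D4:**
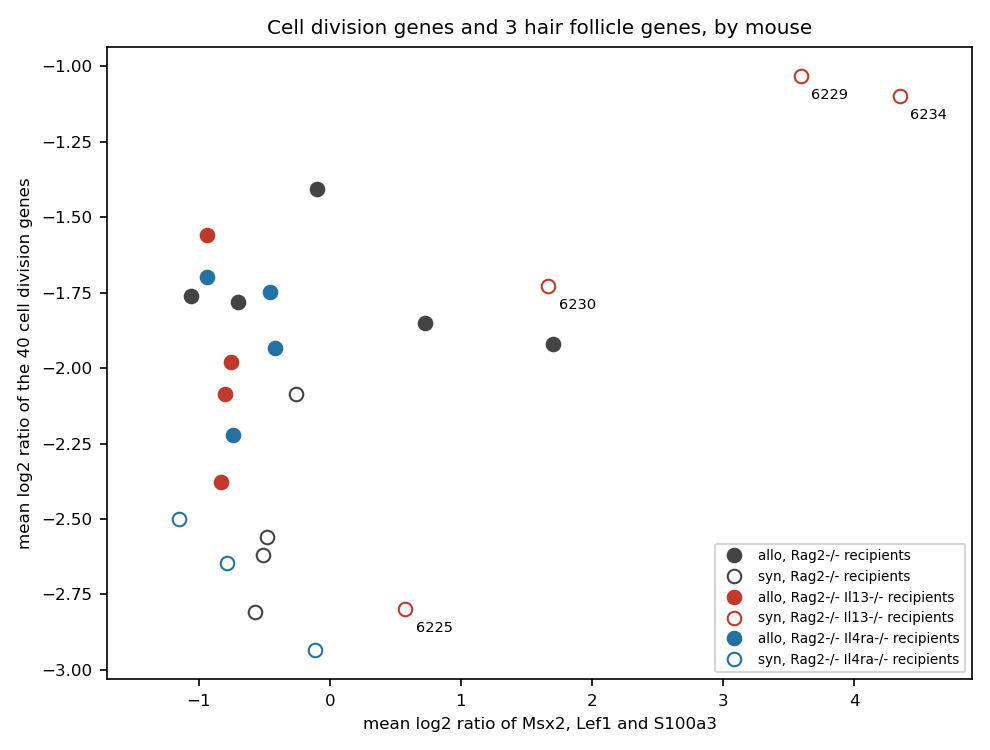
Each point is a mouse, with the mean log2 ratio of 3 hair follicle genes on the horizontal axis and the mean log2 ratio of the 40 cell division genes on the vertical axis, allo mice filled and syn mice open. Syn Il13-/- mice 6229 and 6234 lie at the top right, at -1.03 and -1.10 on the vertical axis, and all other mice except syn Il13-/- mouse 6230 and allo Rag2-/- mouse 5701 lie left of 1 on the horizontal axis.

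The values in Il13-/- recipients depended on which syn mice were counted. Mice 6229 and 6234 were known from earlier results to stand apart in hair genes. They also had the highest means of cell division genes, and 6225 the lowest of its group, so the direction in which leaving them out moves the median is fixed by that choice. Without mice 6229 and 6234, 0 of the 40 passed, while 6.48% of all genes were higher and 3.53% lower. The median difference was 0.229 and 36 were positive. Without mouse 6225 alone, 21 were lower, against 9.30% of all genes, the median was -0.765 and 1 gene was positive. The sign of the median thus differed with the syn mice counted.

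**Figure D5:**
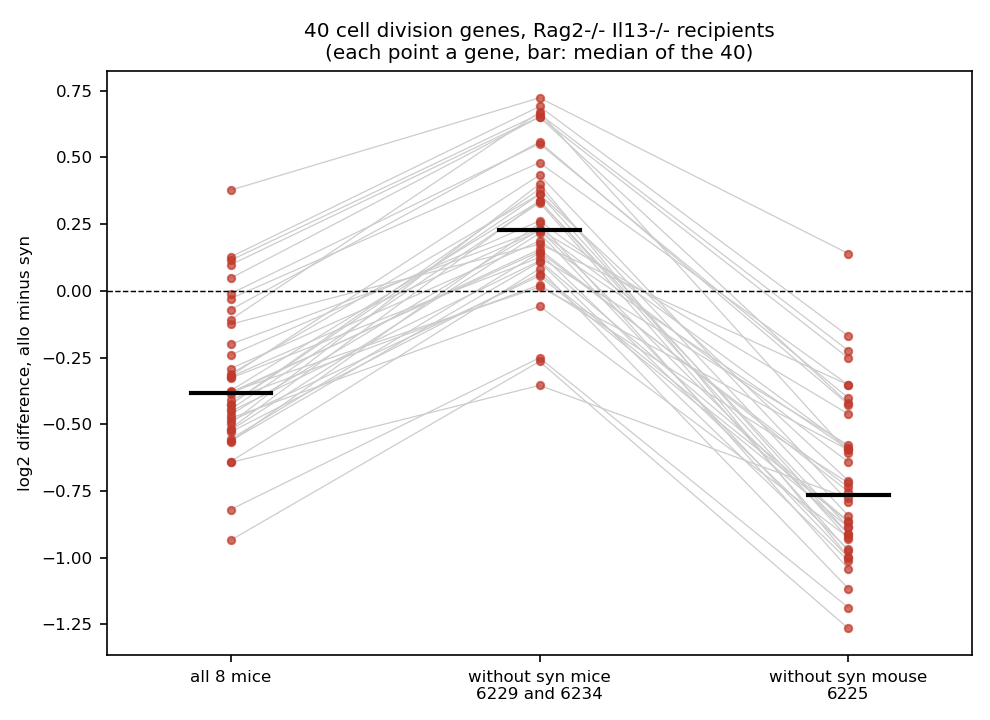
Points are the allo minus syn log2 differences of the 40 genes in Il13-/- recipients with all 8 mice, without syn mice 6229 and 6234, and without syn mouse 6225, thin lines join the same gene and bars are medians. The median is -0.383 with all mice, 0.229 without the first pair and -0.765 without 6225.

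The donor effect in Il13-/- recipients minus that in Rag2-/- recipients was negative in all 40 genes, with a median of -1.10, against 0.0436 over all genes. By limma 0 of the 40 passed, and over all genes 2 did (0.0135%). Counted at an unadjusted p under 0.05, 29 of the 40 were lower and 0 higher, while 6.86% of all genes were lower at that level. Here too the p-values use the shared spread and not the wider one of the syn Il13-/- mice. The 5 smallest p-values were those of Kif20a (-1.56, adjusted p = 0.134), Nusap1 (-1.50), Mki67 (-1.64), Ccna2 (-1.54) and Mad2l1 (-1.44), and Tpx2 had a difference as large as that of Mki67 (-1.64). Without mouse 6225, 32 passed, all lower, against 3.16% of all genes. Without mice 6229 and 6234, 0 passed (0.00% of all genes were lower), and the median was -0.486 with 37 negative.

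Recipients were also compared under the same donor cells. With syn cells, all 40 genes had a higher mean in Il13-/- than in Rag2-/- recipients, with a median difference of 0.86, and 0 passed by limma, while 0.129% of all genes were called higher. At an unadjusted p under 0.05, 32 of the 40 were higher, against 8.38% of all genes. These p-values use the spread shared by all groups and not the wider one of the syn Il13-/- mice. The smallest adjusted p was 0.0681, for Kif20a (1.23, SE 0.31). In 0 of the 40 did all syn Il13-/- mice exceed all syn Rag2-/- mice, against 2.18% of genes measured in all of them. Without mouse 6225, 34 were called higher, against 5.67% of all genes. Without mouse 6230, 7 were, and the share of all genes is not given for that fit. All Il13-/- mice carry numbers of series 62, so genotype and number series cannot be told apart in this comparison.

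With allo cells, 0 of the 40 genes differed between recipients by the test. The median difference was -0.282 for Il13-/- against Rag2-/- recipients, with 37 of the 40 negative. It was -0.16 for Il4ra-/- against Rag2-/- recipients, with 32 negative. Il13 genotype and number series cannot be told apart here either. By limma 0 of the 40 passed in either comparison, while 0.00% and 0.805% of all genes were called. At an unadjusted p under 0.05, 0 of the 40 were higher or lower in either. Of all genes, 3.02% were higher and 2.73% lower in allo Il13-/- mice at that level, and 6.05% higher and 5.95% lower in allo Il4ra-/- mice. In 3 genes, Nusap1, Kif11 and Bub1b, all allo Il13-/- mice lay below all allo Rag2-/- mice, against 0.793% of genes measured in all of these mice. In 3 others, Mcm4, Rrm1 and Tyms, all allo Il4ra-/- mice lay below all allo Rag2-/- mice, against 5.07% of such genes. With syn cells in Il4ra-/- against Rag2-/- recipients, the median was -0.203, 0 passed by limma and 0.00% of all genes were called. Mcm6 alone reached an unadjusted p under 0.05, at -0.74, against 1.72% of all genes that were lower. It was also one of 3 genes, with Mcm5 and Ube2c, in which syn Il4ra-/- mice lay below all syn Rag2-/- mice, against 3.05% of such genes.

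Other cell cycle genes outside the list were examined through 4 further lists. In Rag2-/- recipients, 13 of 24 further replication genes (54.2%) were higher and 0 lower, against 12.6% higher among all genes. They included Cdt1, which loads the helicase with Cdc6 (1.28, SE 0.20, adjusted p = 9.88e-05, limma), Chaf1b, a chromatin assembly subunit (1.17), Fen1, the flap nuclease (1.11), and Rfc5, a subunit of the clamp loader (0.90). Of 41 further mitotic genes, 7 were higher (17.1%, near the 12.6% of all genes) and 0 lower, among them Tacc3 (1.15), Incenp, a passenger complex scaffold (1.12), Cenph (0.96) and the condensin subunit Ncapd2 (0.89). Of 16 genes of the G1 phase, 4 (25%) were higher, namely Ccne1, cyclin E1 (1.44), Ccnd3, cyclin D3 (0.89), Rbl1, a retinoblastoma relative (0.82), and Cdk6 (0.69), and Ccne2 was lower (-0.64, adjusted p = 0.0479). Of 7 inhibitors of cyclin-dependent kinases, Cdkn2c was lower (-1.08, SE 0.20, adjusted p = 0.000469, limma) and 0 were higher. Of all genes tested, 15.6% were lower, so 1 lower gene of 16 or of 7 does not exceed that share.

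In Il4ra-/- recipients, 8 of the 24 replication genes (33.3%) were higher, against 5.91% of all genes, among them Cdt1 (1.45, adjusted p = 0.000289), Uhrf1, a factor of maintenance methylation (1.70), Dnmt1, the maintenance methyltransferase (0.80), and Fen1 (1.12). Of the 41 mitotic genes, 4 (9.76%, against 5.91% of all genes) were higher: Espl1, separase (1.36), Cenph (1.04), Incenp (1.03) and Pkmyt1, an inhibitory kinase of Cdk1 (0.67). Ccnd3 (0.65) and Rbl1 (0.68) were higher among the 16 G1 genes (12.5%), and 0 kinase inhibitors passed. In Il13-/- recipients, 0 of the 24 replication genes and 0 of the 41 mitotic genes passed, while 9.19% of all genes were higher and 7.11% lower. Among the 16 G1 genes only Ccnd3 was higher there (0.70, adjusted p = 0.00254, limma). Among the 7 kinase inhibitors only Cdkn2b was lower (-0.67, adjusted p = 0.0113, limma).

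Markers of infiltrating cells were higher in allo skin of all 3 genotypes. Of 9 T cell genes tested out of 11 listed, 9 were higher in Rag2-/-, 9 in Il13-/- and 8 in Il4ra-/- recipients. Of 11 macrophage and monocyte genes tested out of 12 listed, 11, 11 and 9 were higher. Among all genes tested, 12.6%, 9.19% and 5.91% were higher in the same comparisons. The mean of 7 T cell genes measured in every mouse lay between 1.56 and 2.29 in allo Rag2-/- mice, against -1.31 to -0.92 in syn Rag2-/- mice. It lay between 0.42 and 1.72 in allo Il13-/- mice, against -2.01 to -1.40 in syn Il13-/- mice, and between 0.54 and 0.73 in allo Il4ra-/- mice, against -1.46 to -1.03 in syn Il4ra-/- mice. In syn mice 6229 and 6234, with the highest means of cell division genes, the T cell means were -1.40 and -2.01 and the macrophage means -0.61 and -0.97. The macrophage mean lay between 2.91 and 3.56 in allo Rag2-/- mice, against 0.45 to 0.79 in syn Rag2-/- mice. It lay between 2.32 and 3.72 in allo Il13-/- mice, against -0.97 to 0.23 in syn Il13-/- mice, and between 2.65 and 3.08 in allo Il4ra-/- mice, against 0.24 to 0.79 in syn Il4ra-/- mice.

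Keratinocyte genes differed in direction between the lists. Of 10 basal keratinocyte genes, 4 were lower in allo Rag2-/- skin, among them Trp63 (-1.33) and Col17a1 (-0.68), and 0 higher. Of 7 differentiated keratinocyte genes tested out of 9 listed, 4 were lower there and 0 higher, with a median difference of -0.608. Of all genes tested, 15.6% were lower in Rag2-/- recipients. In Il13-/- or in Il4ra-/- recipients 0 genes of either list passed. Of 8 genes of stressed keratinocytes, 4, 3 and 2 were higher in allo skin of Rag2-/-, Il13-/- and Il4ra-/- recipients. Among all genes 12.6%, 9.19% and 5.91% were higher. Of 3 B cell genes tested in Rag2-/- recipients, 0 were higher and Ms4a1 was lower (-1.05). The part of infiltrating cells or keratinocytes in the values of cell division genes was not tested.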

How the data were processed

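The authors deposited a log2 ratio per probe for 28 Agilent 2-colour arrays from 24 mice, and how they normalized it is not given in the sources used here. Cy3 labelled the skin RNA and Cy5 the reference, per the labels. The sign was turned so that values are skin over reference, a direction that rests on the dyes and on 16 epidermal genes. Base 2 was inferred from spacings of recurring values. Ratios of exactly 0 were treated as missing, arrays of one mouse were averaged, and probes of a gene with the fewest missing mice were averaged (52 of 63 used). A linear model of the 6 groups was run in limma 3.58.1 under R 4.3.3 (lmFit, eBayes) over 14783 genes, each with values from 2 or more mice per group. Tests were two-sided, adjusted by Benjamini-Hochberg over all genes, threshold 0.05. The fit was tried on simulated data in which all groups of a gene had the same spread. That trial does not cover the wider spread of the syn Il13-/- mice. Members and lists were chosen with earlier results of these data known. Values per mouse are given for Mki67, Top2a, Pcna and the 3 members with the smallest adjusted p of each donor comparison. Up to 6 members of each role group and up to 4 called genes of each further list are named. In comparisons of recipients and of donor effects, called members are named, and members without overlap or with the smallest p were named after their values were seen. Spot intensities were not analysed here. The number of mice, 3 to 5 per group, limits the precision.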

Additional observations from a re-analysis of the deposited data

Results flagged for a closer look

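In groups of 4 or 5 mice, 16 of 205 sets of values had 1 mouse far from the rest by Dixon's test, which chance alone gives in about 1 of 20 groups. Allo Rag2-/- mouse 5704 stood above its group in Mcm7 (-1.37), Rrm1 (-1.01), Tyms (-0.829), Ccnb2 (-0.774), Plk1 (-1.26) and Cdc20 (-1.63). Syn Rag2-/- mouse 6153 stood above its group in Mcm4 (-1.92), Tyms (-1.47) and Plk1 (-2.66). Allo Il13-/- mouse 6224 stood above its group in Mcm3 (-1.34) and Mad2l1 (-1.76), and mouse 6226 below it in Mcm6 (-2.18) and Cenpf (-1.98). Allo Il4ra-/- mouse 5720 stood below its group in Rrm2 (-2.12), Cdc20 (-2.82) and Ube2c (-2.82).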

How the results depend on the processing

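The count of genes higher in Rag2-/- recipients (20) lay within 1.5 times under every alternative other than leaving out single mice, where it ranged from 12 to 28. The count in Il13-/- recipients (1) ranged from 0 to 21 with single mice left out. It was 0 with exact 0 kept as a value, the plain mean of all probes, no minimum of mice, groups compared alone, number series as a block, a trended and robust eBayes, without mice 6229 and 6234 (chosen with earlier results known), and without mice 5701 and 6152 (chosen after seeing the data). It was 2 with recurring values as missing or after quantile normalization. The count in Il4ra-/- recipients (9) ranged from 1 to 18 with single mice left out. It was 5 with exact 0 kept as a value, after quantile normalization or with number series as a block, 22 with groups compared alone, 18 without mice 6229 and 6234, and 1 without mouse 5718. The difference of donor effects between Il13-/- and Rag2-/- recipients (0) ranged from 0 to 32, and the comparison of these recipients under syn cells (0) from 0 to 34, with single mice left out. Under syn cells the count was 1 with recurring values as missing. The remaining 4 comparisons kept a count of 0 under every alternative run. No paired analysis was possible because the groups share no replicate numbers. For most of these fits the share of all genes called is not given. Their counts therefore do not separate a change in the cell division genes from a change in calls over all genes. The causes of these changes were not tested.

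Limits: 11 of the 40 genes average several probes, of opposite sign in 2, 3 and 2 genes in Rag2-/-, Il13-/- and Il4ra-/- recipients. These counts leave out 11 unused probes of 10 genes, measured in fewer mice, some of which had the opposite sign to the probe used. Exact 0 made up 2.42% to 36.8% of the values of an array. Natural logarithms instead of base 2 would rescale every difference; pairs of recurring values at log2 spacings of 2, 1.17 and 0.83 numbered 60, 57 and 49 of 5320, the highest within 0.1 of each spacing.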
